A study of Mus musculus with 6 samples.

Results

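The 10 genes described here make or move inducible defence products at the intestinal surface: Duox2, Duoxa2, Nox1, Nos2, Lcn2, Saa1, Saa2, Saa3, Pigr and Ido1. They were chosen by name, as 10 of the 23699 rows in each library's gene table. Their levels were measured by RNA sequencing in the duodenum of 6-week-old mice on a mixed strain background, with 3 mutant and 3 control animals and 1 library each. The 3 mutants, called TNint, were Nkx2.2flox/TN; Villin-Cre/+; Rosa26Tomato/+. Controls 1 and 2 were Nkx2.2flox/+; Rosa26Tomato/+, and control 3 was Nkx2.2flox/+ without the Rosa26Tomato allele. All 6 animals thus carried a floxed Nkx2.2 allele. Villin-Cre is a recombinase active in intestinal epithelium, whereas the TN allele was inherited by every cell of the mutants. The controls lacked both Cre and the TN allele, so effects of either cannot be told apart in these groups.

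Dual oxidase 2 (Duox2) is an NADPH oxidase of the apical membrane that releases hydrogen peroxide towards the lumen. It needs its maturation factor Duoxa2 to leave the endoplasmic reticulum, and the genes of both proteins lie head to head. The remaining genes cover superoxide (Nox1), nitric oxide (Nos2), capture of bacterial siderophores (Lcn2), acute-phase serum amyloid A (Saa1, Saa2, Saa3), transport of IgA across the epithelium (Pigr) and tryptophan breakdown (Ido1). In the gut many of these genes are known to respond to microbes and to cytokines of the IL-17, IL-22 and interferon type.

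Values are FPKM, which are fragments scaled to transcript length and library size and can be compared between genes of different length. Depth, read from the FPKM intervals, was 16880000 to 25910000 implied reads in mutants and 14210000 to 21250000 in controls. Nkx2-2, the targeted gene, had 0.748, 0.744 and 0.666 FPKM in mutant libraries 1, 2 and 3, against 1, 1.03 and 1.27 FPKM in control libraries 1, 2 and 3. Transcripts of the TN allele are not told apart from those of the wild-type allele here, which limits what this level says of the labels. Pancreatic acinar transcripts stood apart in libraries with the number 3: the summed level of 13 acinar genes was 3090, 3122 and 12429 FPKM in mutants and 226, 651 and 10834 FPKM in controls. Mutants 1 and 2 also lay above controls 1 and 2. All 13 genes had a positive log2 fold change (median 3.35), and 0 passed after adjustment in limma. Clps alone had 201 FPKM in control 1. The summed level of 10 smooth muscle genes was 652 to 859 FPKM in mutants and 862 to 1138 FPKM in controls. Of the 10, 8 had an unadjusted p under 0.05 in limma, against 5.81% of all rows, but 0 passed after adjustment. Epithelial markers (9 genes, Epcam among them) summed to 6931 to 7255 FPKM in mutants and 6605 to 7165 FPKM in controls.

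None of the 10 genes passed the test between mutants and controls. Of the 10, 9 passed the filter of a mean of at least 0.1 FPKM, and 0 of these 9 had an adjusted p under 0.05 in limma, where 0% of all 15864 rows were called. None of the 9 had an unadjusted p under 0.05, against 5.81% of all rows. For all 9 the mutant and control values overlapped, whereas the groups did not overlap for 13.1% of rows (9.92% lower in mutants and 3.13% higher). Adjusted p-values ran from 0.786 to 0.987 in limma, and exact two-sided permutation tests gave 0.2 to 1 where the smallest possible p is 0.1. The other tools made no call either: limma voom on implied reads called 0 of the 9, and in the authors' deposited table of DESeq results all 9 had an adjusted p of 1, where 0.0378% of the genes tested were called. In a bulk sample fewer cells of a type and less RNA per cell cannot be told apart, so each level below is that of the whole wall.

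Duox2 (mm9 chr2:122106173-122123901, minus strand, transcript NM_177610) had 7.38, 1.6 and 3.91 FPKM in mutant libraries 1, 2 and 3. It had 13, 4.87 and 6.08 FPKM in control libraries 1, 2 and 3. Mutant 1 lay above controls 2 and 3, so the groups overlapped, and the extremes were control 1 at the top and mutant 2 at the bottom. The means were 4.3 ± 2.91 FPKM in mutants and 7.97 ± 4.36 FPKM in controls (SD, n = 3 each). The log2 fold change of −0.99 (SE 0.58, 95% interval −2.37 to 0.38) was the most negative of the 9 and did not pass in limma (adjusted p = 0.786). The labels number the libraries but name no pairs, and pairing by number rests on these same data. Deviations over all genes correlated at 0.11, 0.21 and 0.39 within same-numbered pairs, against up to 0.13 between unlike numbers. Pair 1 is thus weakly marked. Within these pairs Duox2 was lower in the mutant in 3 of 3, by log2 differences of −0.8, −1.55 and −0.62. With the pair as a block its standard error shrank to 0.19 and its unadjusted p to 0.00252, with an adjusted p of 0.606 in limma. The log2 fold change was −0.43 without mutant 2 and −1.5 without mutant 1. The authors' deposited table gives mean normalized counts of 415 in mutants and 719 in controls, a log2 fold change of −0.79.

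Duoxa2 (chr2:122124636-122128621, plus strand, NM_025777) followed the same order of extremes. It was measured at 9.98, 1.82 and 5.67 FPKM in mutants, against 14.2, 5.62 and 3.76 FPKM in controls. Control 1 was again highest and mutant 2 lowest, but control 3 lay below mutant 3. Means of 5.82 ± 4.08 FPKM in mutants and 7.87 ± 5.58 FPKM in controls (SD, n = 3 each) gave a log2 fold change of −0.5 (SE 0.69, adjusted p = 0.889 in limma). It turned to 0.16 without mutant 2 and to 0.04 without control 1. The ratio of Duoxa2 to Duox2 was 1.35, 1.14 and 1.45 in mutants and 1.1, 1.15 and 0.618 in controls. Control 3 was the only library in which Duoxa2 was below Duox2 per length. The groups overlapped in this ratio (log2 difference 0.51, exact two-sided permutation p = 0.2).

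Duox2 and Duoxa2 are transcribed away from each other, and the transcripts in the files leave 734 bases between them. Their promoters are shown because the pair had the highest Pearson correlation among these genes, though not the highest Spearman correlation. RefSeq windows run from 250 bases before to 50 bases after a start site. The RefSeq start site of Duox2 lies 62 bases upstream of the start in the files, which leaves 672 bases between the RefSeq start sites. Each window is given 5′ to 3′ on the strand of its gene, and capitals mark matches to the C/EBP-type motif TTGNGNAA on either strand. The Duox2 window (chr2:122123914-122124213, minus strand) has 1 match and the Duoxa2 window (chr2:122124386-122124685, plus strand) has none.
Duox2: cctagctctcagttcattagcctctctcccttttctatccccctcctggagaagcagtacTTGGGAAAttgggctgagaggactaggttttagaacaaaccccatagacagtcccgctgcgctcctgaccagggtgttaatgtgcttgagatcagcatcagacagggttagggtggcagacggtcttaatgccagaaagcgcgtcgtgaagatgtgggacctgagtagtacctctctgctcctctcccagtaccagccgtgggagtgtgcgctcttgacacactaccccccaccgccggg
Duoxa2: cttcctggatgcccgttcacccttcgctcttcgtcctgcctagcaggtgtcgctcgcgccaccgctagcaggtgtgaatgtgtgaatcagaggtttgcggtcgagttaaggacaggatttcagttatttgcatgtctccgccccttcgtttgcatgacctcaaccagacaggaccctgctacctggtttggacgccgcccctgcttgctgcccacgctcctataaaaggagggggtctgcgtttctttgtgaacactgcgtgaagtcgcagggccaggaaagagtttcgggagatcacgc
Such a match occurs in 13.3% of 32851 promoter windows, so it is a description of these letters and no evidence of binding.

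**Figure D1:**
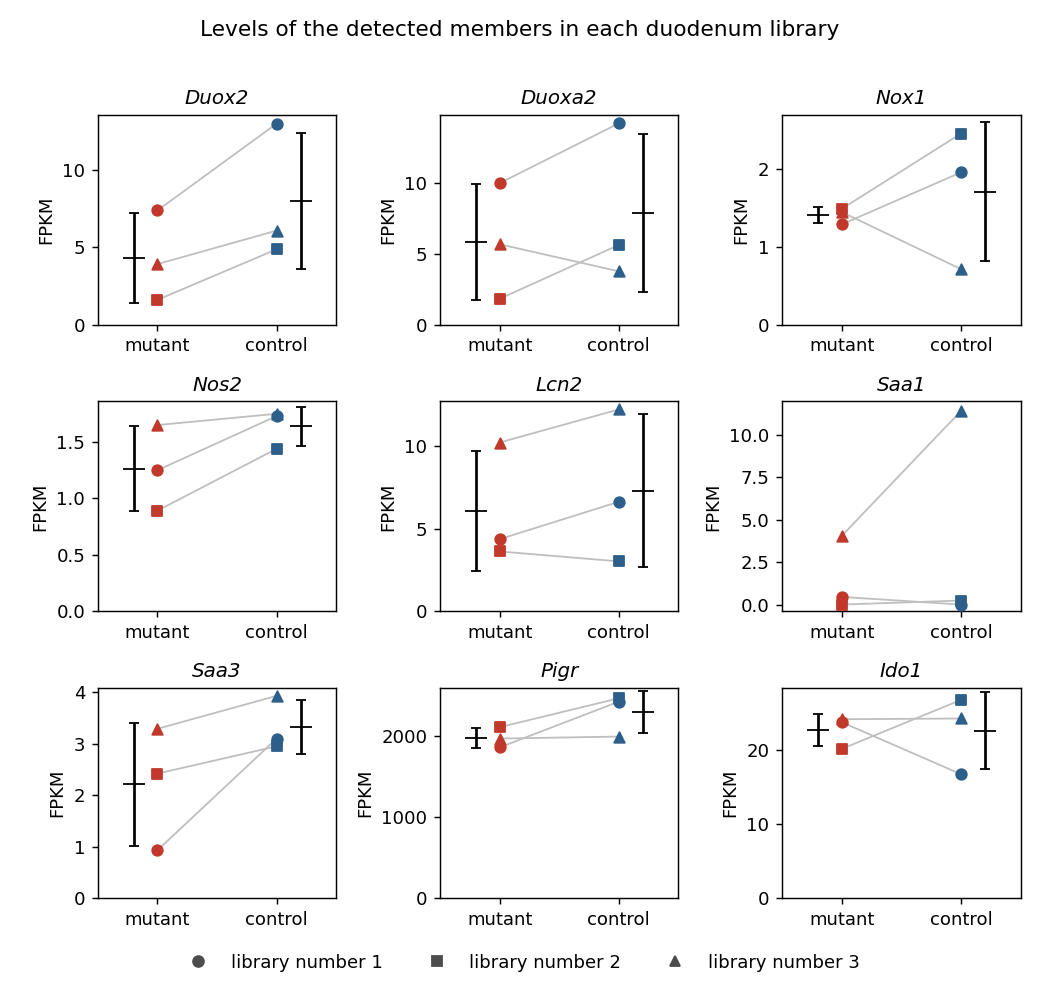
FPKM of the 9 detected genes in each library, mutant on the left and control on the right of each panel. Symbols give the library number, grey lines join libraries with the same number, and black bars are the mean ± SD (n = 3), left out for Saa1, which is listed at 0 in some libraries. In each panel the mutant and control values overlap, and Duox2 is lower in the mutant along all 3 lines.

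Nox1 (chrX:130621685-130646247, minus strand, NM_172203), the superoxide-producing oxidase best known from colon epithelium, was low. It had 1.29, 1.49 and 1.45 FPKM in mutants, and 1.96, 2.46 and 0.715 FPKM in controls. The mutants lay close together between control 3 and the other controls. Means of 1.41 ± 0.107 FPKM in mutants and 1.71 ± 0.899 FPKM in controls (SD, n = 3 each) differed by −0.11 on the log2 scale (SE 0.41, adjusted p = 0.973 in limma). This difference was 0.06 without control 1, 0.22 without control 2 and 0.01 after quantile normalization. Only 21 to 77 implied reads lay behind each Nox1 value, and counting error alone gives an SD of about 0.23 on the log2 scale, against a within-group SD of 0.62.

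Transcripts of the subunits that Nox1 works with were more abundant per length than that of Nox1. Noxo1, the organiser subunit, averaged 18.6 ± 0.983 FPKM in mutants and 17.2 ± 1.25 FPKM in controls (SD, n = 3 each). Noxa1, the activator, averaged 12.2 ± 0.974 and 11.8 ± 2.44 FPKM in mutants and controls, and Cyba, the shared membrane subunit p22phox, averaged 107 ± 16.3 and 98.3 ± 7.4 FPKM. The FPKM ratio of Noxo1 to Nox1 was 12 to 14.6 in mutants and 7.02 to 22.3 in controls. The other dual oxidase pair was close to the detection limit: Duox1 had 0.0769 to 0.145 FPKM in mutants and 0.0566 to 0.224 FPKM in controls, and its maturation factor Duoxa1 stayed at or below 0.11 FPKM in all 6 libraries. Nox3 was listed at 0 in all 6. Cybb, the phagocyte oxidase, averaged 8.1 ± 0.415 FPKM in mutants and 8.82 ± 1.32 FPKM in controls. Of 11 tested genes in this family list 0 passed in limma, with 5 positive and 6 negative log2 fold changes and a median of −0.01, against −0.05 over all rows. Rac2 (0.15) and Noxo1 (0.11) had the smallest unadjusted p-values.

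**Figure D2:**
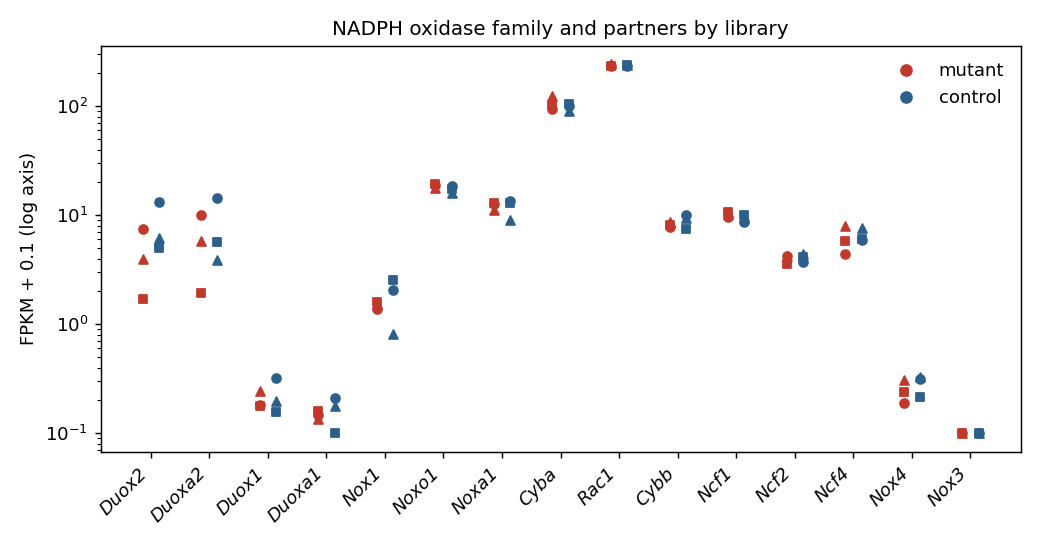
FPKM + 0.1 on a log axis for the NADPH oxidases and their partners in each library, mutants (red) left of controls (blue), with symbols for library numbers 1 (circle), 2 (square) and 3 (triangle). Duox2 and Duoxa2 spread most between libraries, Noxo1, Noxa1 and Cyba sit above Nox1, and Duox1 and Duoxa1 sit near the bottom.

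Nos2 (chr11:78734361-78773626, plus strand, NM_010927), the inducible nitric oxide synthase of macrophages and epithelium, had 1.25, 0.892 and 1.65 FPKM in mutants. In controls 1, 2 and 3 it had 1.73, 1.44 and 1.75 FPKM. Mutant 3 lay inside the control range, and the remaining mutants lay below it. Averages were 1.26 ± 0.378 FPKM in mutants and 1.64 ± 0.172 FPKM in controls (SD, n = 3 each). Their log2 fold change was −0.38 (SE 0.23, adjusted p = 0.786 in limma), with differences of −0.44, −0.63 and −0.08 in the 3 pairs. It was −0.17 without mutant 2 and −0.58 without mutant 3. Among 9 tested genes of nitric oxide and arginine metabolism none passed (5 positive, 4 negative, median 0.03). The endothelial synthase Nos3 had a log2 fold change of −0.2, and Arg1, an arginase of macrophages, 0.31. Arg2, the mitochondrial arginase, was abundant at 592 ± 40.9 FPKM in mutants and 574 ± 92.7 FPKM in controls (SD, n = 3 each).

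Lcn2 (chr2:32240157-32243259, minus strand, NM_008491), the siderophore-binding lipocalin, differed more between libraries than between groups. Mutant libraries 1, 2 and 3 had 4.36, 3.62 and 10.2 FPKM, and control libraries 1, 2 and 3 had 6.62, 3.02 and 12.2 FPKM. In both groups library 3 was highest and library 2 lowest. Means were 6.06 ± 3.6 FPKM in mutants and 7.27 ± 4.6 FPKM in controls (SD, n = 3 each). Between them the log2 fold change was −0.2 (SE 0.56, adjusted p = 0.963 in limma), and it turned to 0.09 without mutant 2 and to 0.28 without control 3.

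Saa1 (chr7:53995869-53998350, minus strand, NM_009117) showed the most extreme spread. It was listed at 0.451, 0 and 4.04 FPKM in mutants, which is 3, 0 and 35 implied reads. In controls it was listed at 0, 0.239 and 11.4 FPKM, which is 0, 2 and 90 implied reads. In both groups library 3 held nearly all of the signal. A count of 0 allows up to 3 reads, so the remaining 4 libraries were at or under that floor. A log2 fold change of −0.26 had a 95% interval of −4.94 to 4.43 (adjusted p = 0.987 in limma). It was 1.05 without mutant 2, 1.73 without control 3 and 0.35 without the number 3 libraries of both groups, a setting chosen after seeing the data.

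Saa2 (chr7:54007203-54009684, plus strand, NM_011314) was listed at 0 in all 6 libraries, and the authors' deposited table also gives a mean of 0 in both groups. A count of 0 allows up to 3 reads per library. Saa1 and Saa2 are near-identical neighbours that lie 8852 bases apart and point away from each other. Over the 369 coding bases of the GENCODE vM1 transcripts they differ at 18 positions (95.1% identical), and their longest identical run is 73 bases. The sources used here do not say how reads matching both copies were assigned, so the split is uncertain and the 0 of Saa2 may not be its own level. The stretch of coding bases 90 to 149, counted from the start codon, is shown because it holds 7 of the 18 differences, in capitals.
Saa2: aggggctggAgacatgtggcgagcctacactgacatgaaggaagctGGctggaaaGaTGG
Saa1: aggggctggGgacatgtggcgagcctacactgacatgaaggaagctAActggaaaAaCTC
Their promoter windows are also alike, with 287 of 299 aligned bases identical and 2 gap positions. Both windows hold the same match to TTGNGNAA, and the Saa1 window has a second match closer to the start site. The Saa2 window is chr7:54006953-54007252 on the plus strand, the Saa1 window is chr7:53998301-53998600 on the minus strand, and the Lcn2 window, which has 1 match, is chr2:32243210-32243509 on the minus strand.
Saa2: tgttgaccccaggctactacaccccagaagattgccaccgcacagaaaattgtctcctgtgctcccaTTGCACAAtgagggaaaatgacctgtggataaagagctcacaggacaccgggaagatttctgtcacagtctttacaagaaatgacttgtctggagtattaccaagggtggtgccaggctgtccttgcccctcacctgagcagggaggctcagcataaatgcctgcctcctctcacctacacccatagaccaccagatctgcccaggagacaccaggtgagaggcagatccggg
Saa1: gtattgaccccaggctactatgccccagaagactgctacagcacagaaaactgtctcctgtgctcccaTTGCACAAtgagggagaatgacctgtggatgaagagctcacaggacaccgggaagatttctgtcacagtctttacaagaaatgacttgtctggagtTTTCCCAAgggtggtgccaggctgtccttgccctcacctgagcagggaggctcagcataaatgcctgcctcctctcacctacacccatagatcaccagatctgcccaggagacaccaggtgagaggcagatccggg
Lcn2: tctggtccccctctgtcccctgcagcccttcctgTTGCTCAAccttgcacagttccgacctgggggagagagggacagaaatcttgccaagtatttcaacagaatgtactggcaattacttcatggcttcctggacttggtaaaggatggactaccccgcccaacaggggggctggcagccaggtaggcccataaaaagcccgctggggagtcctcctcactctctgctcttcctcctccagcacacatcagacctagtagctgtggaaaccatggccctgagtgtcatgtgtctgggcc
Of the 10 genes, 8 were in the RefSeq promoter table, and 4 of these windows held a TTGNGNAA match. An NF-kB motif of 10 letters was found in the window of Nox1 alone (1.63% of all windows), and the STAT-type motif TTCNNNGAA in that of Pigr alone (8.3% of all windows). No motif match overlapped another. Ido1 and Nos2 were not in the table.

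Saa3 (chr7:53967368-53971046, minus strand, NM_011315), which in mice is made by macrophages and adipocytes as well as by epithelium, was detected in each library. It had 0.931, 2.42 and 3.29 FPKM in mutants, and 3.1, 2.95 and 3.93 FPKM in controls. Mutants 1 and 2 lay below the controls, and mutant 3 lay among them. On average it had 2.21 ± 1.19 FPKM in mutants and 3.33 ± 0.528 FPKM in controls (SD, n = 3 each). This is a log2 fold change of −0.72 (SE 0.42, adjusted p = 0.786 in limma), which was −0.22 without mutant 1. Only 5 to 25 implied reads stood behind each value, so counting error contributes an SD of about 0.4 on the log2 scale to a within-group SD of 0.65. Macrophage and dendritic cell markers (9 genes) summed to 374 to 406 FPKM in mutants and 360.1 to 419.6 FPKM in controls. Adipocyte markers (7 genes) summed to 119.5 to 144 FPKM in mutants and 104 to 138 FPKM in controls. Most of the adipocyte sum was Cidec (67.1 to 98.2 FPKM over the 6 libraries) and Fabp4 (35.9 to 44.1 FPKM). Of the defining adipocyte genes, Adipoq stayed at or below 0.341 FPKM and Plin1 at or below 0.153 FPKM in all 6 libraries, although Cfd had a log2 fold change of −1.28 (adjusted p = 0.786 in limma). The part of macrophages and adipocytes in the Saa3 level was not tested.

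Pigr (chr1:132723261-132748826, plus strand, NM_011082), the receptor that carries polymeric IgA to the lumen, was by far the most abundant of the 10 and ranked 31 of all 23699 rows. It had 1858, 2107 and 1967 FPKM in mutants, against 2422, 2464 and 1992 FPKM in controls. Mutants 1 and 3 lay below the controls and mutant 2 lay above control 3. The means were 1977 ± 125 FPKM in mutants and 2293 ± 261 FPKM in controls (SD, n = 3 each). Each value rests on 113312 to 197524 implied reads. Its log2 fold change of −0.21 (SE 0.14, 95% interval −0.54 to 0.13) did not pass (adjusted p = 0.796 in limma). Igj, the joining chain of the IgA that Pigr carries, averaged 1289 ± 228 FPKM in mutants and 1267 ± 204 FPKM in controls. Of 12 tested genes of IgA production 0 passed, with 6 positive and 6 negative values and a median of −0.01. Pou2af1 (−0.18) and Cd79b (−0.24), both B cell genes, had the smallest unadjusted p-values. Ccl28, a chemokine for IgA plasma cells, was listed at 0 in all 6 libraries.

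Ido1 (chr8:25694613-25707481, minus strand, NM_008324), which opens the kynurenine pathway, was nearly level. It had 23.7, 20.1 and 24.1 FPKM in mutants, and 16.7, 26.7 and 24.2 FPKM in controls. All 3 mutants lay inside the control range. Averages of 22.6 ± 2.19 FPKM in mutants and 22.5 ± 5.18 FPKM in controls (SD, n = 3 each) gave a log2 fold change of 0.03 (SE 0.18, 95% interval −0.39 to 0.45, adjusted p = 0.982 in limma). The sign changed without mutant 1 (−0.01), without mutant 3 (−0.02) or without control 1 (−0.17). The neighbouring paralogue Ido2 was at or below 0.0415 FPKM in mutants and listed at 0 in controls. Downstream, Kmo averaged 3.09 ± 0.314 FPKM in mutants and 3.03 ± 0.224 FPKM in controls, and Kynu averaged 1.63 ± 0.0656 and 1.72 ± 0.13 FPKM. None of 8 tested genes of a tryptophan and kynurenine list passed (4 positive, 4 negative, median −0.02). The list includes Wars, a tryptophan transfer RNA synthetase, and Afmid (0.31) and Ccbl1 (0.21) had the smallest unadjusted p-values. Haao (−0.55) and Tdo2 (−0.45) had larger log2 fold changes at levels below 1 FPKM.

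**Figure D3:**
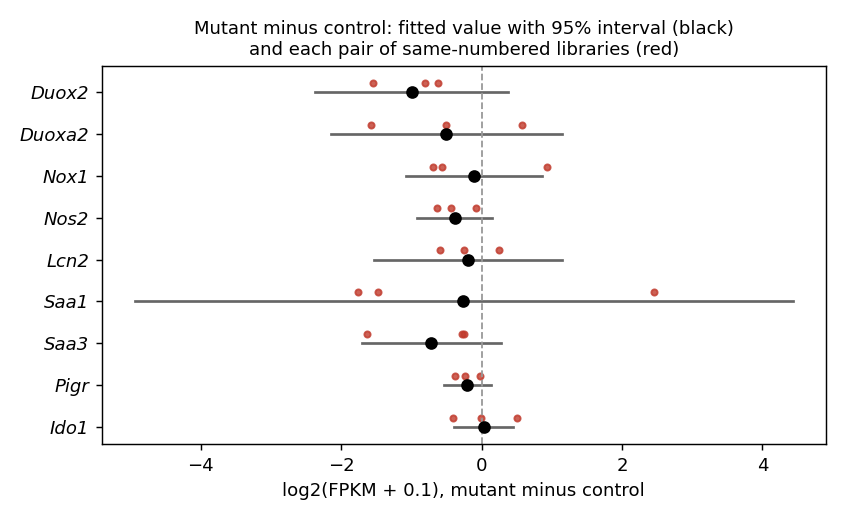
Mutant minus control difference on the log2(FPKM + 0.1) scale for the 9 tested genes. Black points are the limma estimates with their 95% intervals (n = 3 each), and red points are the differences of the 3 pairs of libraries with the same number. Each interval includes 0, and for Duox2, Nos2, Saa3 and Pigr all 3 red points lie below 0.

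Read together, 8 of the 9 tested genes had a negative log2 fold change, where 61.3% of all rows did. Their median was −0.26, against −0.05 over all rows. The negative lean over all rows depended on scaling, as that median was −0.01 after trimmed mean scaling and after quantile normalization. At an unadjusted p under 0.05 in limma, 237 rows were higher and 685 lower in mutants, against 444 and 461 after trimmed mean scaling. Duox2, Nos2, Saa3 and Pigr were lower in the mutant in 3 of 3 pairs, which makes 4 of the 9, whereas 23.1% of all rows were. Some of these differences were close to none: in pair 3 the log2 difference was −0.02 for Pigr and −0.08 for Nos2. For Saa3, mutant 2 and control 2 each had 20 implied reads. No gene of the 9 was higher in 3 of 3 pairs. These counts describe a list that was chosen with earlier results known, and pairs that the labels do not name. With the pair as a block 0 of the 9 passed in limma (adjusted p from 0.606 to 0.962), where 0.0126% of all rows were called, and 1 of the 9, Duox2, had an unadjusted p under 0.05, against 7.89% of all rows.

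The spread between animals of a group was wide for most of these genes. The within-group SD on the log2 scale had a median of 0.65 over the 9 genes and of 0.16 over all 15864 rows. For 6 of the 9 it exceeded that of 90% of all rows, with Saa1 at 3.15, Duoxa2 at 1.1, Duox2 at 0.92 and Lcn2 at 0.89. Pigr (0.14), Ido1 (0.27) and Nos2 (0.31) were the steadier genes. Counting error alone would give an SD of about 0.07 for Duox2, 0.12 for Duoxa2 and 0.18 for Lcn2. The rest holds every other difference between these libraries, technical ones included. Within mutants the highest Duox2 value was 4.62 times the lowest, and within controls it was 2.66 times.

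The genes did not all vary in the same libraries. Among the 36 pairs of the 9 genes, 21 correlations over the 6 libraries were positive and 15 negative, with a median Pearson r of 0.08. No pair passed after adjustment over the 36 (smallest adjusted p = 0.65 for Pearson and 0.633 for Spearman, exact two-sided permutation tests), and 1 pair had an unadjusted Pearson p under 0.05. That pair was Duox2 and Duoxa2, with r = 0.91 (exact permutation p = 0.0181, adjusted 0.65) and Spearman rho = 0.77 (exact permutation p = 0.103, adjusted 0.633). Without control 1 and mutant 2, the libraries farthest from the median of Duox2, r was 0.39 over the remaining 4, whose range of Duox2 is narrower by that choice, so the relation is not shown apart from those libraries. On deviations from the group means r was 0.95. Control 1 also had the highest summed level of the Brunner gland and mucous neck markers Muc6 and Tff2, at 526 FPKM, against 20.3 to 202 FPKM in the other libraries. Mutant 2 had 158 FPKM, and the part of these glands in the Duox2 level was not tested.

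By rank the highest pairs were Nos2 with Saa3, with rho = 0.89 (exact permutation p = 0.0333, adjusted 0.633) and r = 0.49 (exact permutation p = 0.261, adjusted 0.792), and Nox1 with Pigr. Nox1 and Pigr had rho = 0.83 (exact permutation p = 0.0583, adjusted 0.633) and r = 0.74 (exact permutation p = 0.075, adjusted 0.708), and r was 0.98 without control 2 and control 3. For Nos2 and Saa3 r was 0.67 without mutant 1 and mutant 2.

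Lcn2 and Saa1, both acute-phase genes, had r = 0.77 (exact permutation p = 0.0861, adjusted 0.708) and rho = 0.67 (exact permutation p = 0.161, adjusted 0.725). All Saa1 signal above the floor lay in mutant 3 and control 3. Without them r was −0.4, over 4 libraries with 0 to 3 implied Saa1 reads, which is too few to measure a relation. The same libraries had the most acinar transcript, and its part in the levels of Lcn2 and Saa1 was not tested. Neutrophils also make Lcn2, and their part in its level was not tested. The neutrophil list (10 genes with a row, 6 of them tested) summed to 16 to 18.2 FPKM in mutants and 12.3 to 19.6 FPKM in controls. Elane was listed at 0 in all 6 libraries, Mpo did not exceed 0.0304 FPKM and S100a8 did not exceed 1.07 FPKM. Retnlg held most of the sum, with 14.6, 12.5 and 10.9 FPKM in mutants and 7.49, 9.4 and 13.4 FPKM in controls. Ltf, the iron-binding lactoferrin, had 2.17, 0.934 and 3.37 FPKM in mutants and 2.55, 1.4 and 4.5 FPKM in controls. It was named after its values were seen, and was highest in library 3 and lowest in library 2 of each group as Lcn2 was. Csf3r of the same list was instead lowest in library 3 of each group. It had 0.778, 0.712 and 0.657 FPKM in mutants and 1.06, 0.858 and 0.709 FPKM in controls. Duox2 had r = 0.29 with Lcn2 and 0.05 with Saa1 (exact permutation p = 0.603 and 0.917, adjusted 0.951 each).

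**Figure D4:**
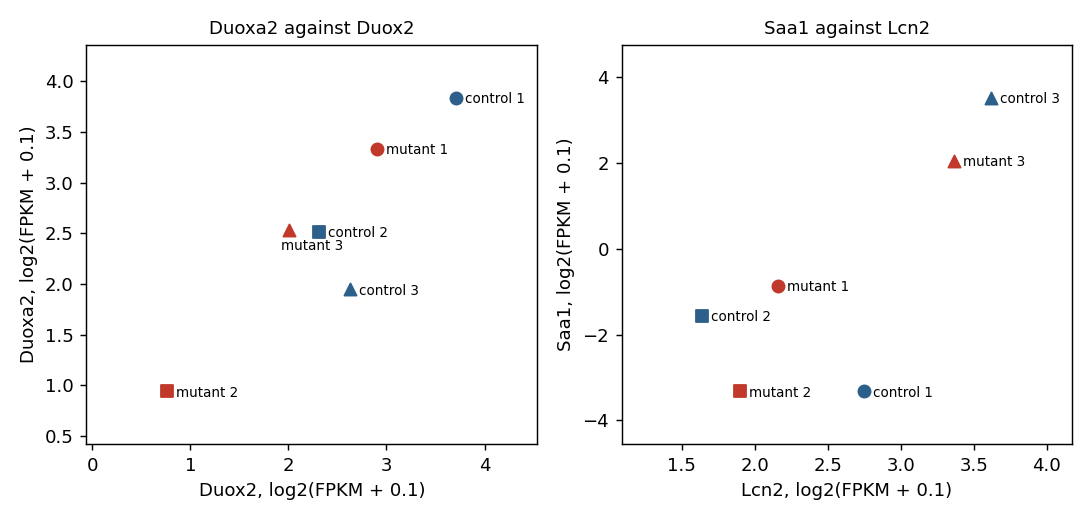
Duoxa2 against Duox2 (left) and Saa1 against Lcn2 (right) on the log2(FPKM + 0.1) scale, 1 point for each library, mutants red and controls blue, with symbols for the library number. On the left control 1 and mutant 2 mark the ends of the relation, and on the right mutant 3 and control 3 stand apart from the other libraries.

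Among 21 tested genes of a list of other inducible defence genes, 11 were lowest in library 2 of both groups, as were 3 of the 9 genes described here (Duox2, Nos2 and Lcn2), where 9.46% of all rows were. This tally was made after the values were seen. Cxcl9, Cxcl10 and Slpi of that list were instead highest of the controls in control 2, at 6.78, 5.32 and 9.31 FPKM. Among mutants, however, each of these genes was lowest in mutant 2, at 4.88, 4.31 and 5.36 FPKM. Reg3b, a bactericidal lectin named after its values were seen, had 21242, 1308 and 31280 FPKM in mutants and 13679, 1256 and 45574 FPKM in controls. As for Lcn2, control 3 and mutant 3 were the highest and mutant 2 and control 2 the lowest. Retnlb, a goblet cell product, had 798, 5.11 and 334 FPKM in mutants, and 35.1, 8.09 and 491 FPKM in controls. Tifa, an adaptor for bacterial sugar sensing, had 22.1, 5.73 and 28.8 FPKM in mutants and 24.7, 6.16 and 32.4 FPKM in controls, and Fut2, a fucosyltransferase, was also lowest in library 2 of each group. Retnlb, Tifa and Fut2 were likewise named after their values were seen. Of 21 tested genes in this list 0 passed (9 positive, 12 negative, median −0.08). C3, the central complement component, had the smallest unadjusted p, at 7.19 ± 0.399 FPKM in mutants and 12.6 ± 3.88 FPKM in controls (log2 −0.75, SE 0.21, adjusted p = 0.786 in limma). Cxcl1, a neutrophil chemokine, had 0.394 ± 0.117 FPKM in mutants and 0.195 ± 0.0599 FPKM in controls (log2 0.73, SE 0.29, adjusted p = 0.786). Only 5 to 7 implied reads in mutants and 2 to 4 in controls stood behind these values.

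**Figure D5:**
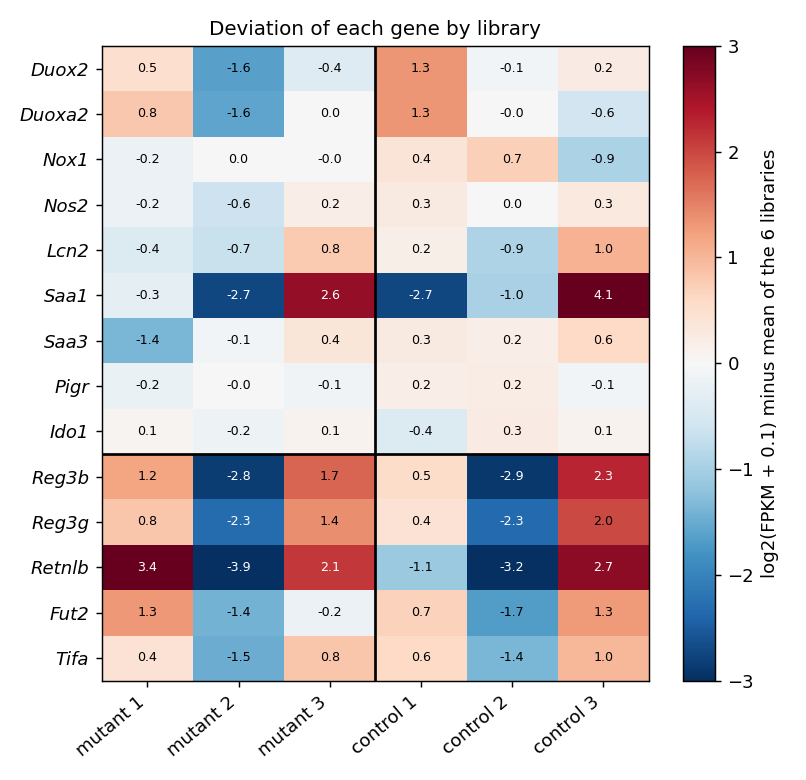
Deviation of log2(FPKM + 0.1) from the mean of the 6 libraries, with mutants in the left columns and controls in the right ones. The 9 detected genes are above the line and 5 other inducible defence genes, chosen after their values were seen, below it. The colour scale ends at 3, so Saa1 in control 3 and Retnlb in some libraries lie beyond it. All 5 lower genes, Lcn2, Duox2 and Nos2 are lowest of their group in mutant 2 and control 2, and Duox2 is highest in control 1.

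Levels of the cytokines that induce such genes differed widely. Il18, an epithelial cytokine named after its values were seen, was the most abundant of the list, with 171, 119 and 214 FPKM in mutants and 134, 86.1 and 201 FPKM in controls. Library 3 was highest and library 2 lowest in both groups, as for Lcn2. Il33 had 7.24 to 10.2 FPKM in mutants and 8.14 to 11.5 FPKM in controls. Il1b had 2.83, 3.85 and 3.45 FPKM in mutants and 2.16, 4.45 and 2.71 FPKM in controls. Unlike Il18, it was highest in library 2 of both groups. Cytokines of the IL-22, IL-17 and IL-6 type were near the detection limit. Il22 reached at most 0.136 FPKM in mutants and 0.0575 FPKM in controls, and Il17a at most 0.0954 FPKM in mutants and 0.157 FPKM in controls. Il6 was listed at 0 in all 6 libraries. Of 6 tested cytokines 0 passed (4 positive, 2 negative, median 0.17), with Lta at −0.52 and Tnf at 0.24. Their receptors were present: Il22ra1, the IL-22 receptor of epithelium, averaged 25.3 ± 4.77 FPKM in mutants and 30.3 ± 5.65 FPKM in controls, and Il17rc averaged 45.6 ± 6.19 and 45.5 ± 3.33 FPKM (SD, n = 3 each).

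Among 16 tested cytokine and microbial receptors 0 passed, with 5 positive and 11 negative values and a median of −0.06. Il6st, the gp130 subunit shared by IL-6 family receptors, had 11.3, 12.4 and 10.9 FPKM in mutants, against 14.7, 13.7 and 13.8 FPKM in controls. The groups did not overlap (log2 −0.29, SE 0.08), but the adjusted p was 0.786 in limma. Il18r1 had a log2 fold change of −0.37. Of 16 tested transducers and transcription factors 0 passed (5 positive, 11 negative, median −0.08). Nfkbiz, the NF-kB cofactor IkB-zeta, had 29.6 ± 1.93 FPKM in mutants and 34.7 ± 1.47 FPKM in controls (log2 −0.23, SE 0.08, adjusted p = 0.786), and Jak1 had a log2 fold change of −0.16.

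Genes of peroxide handling did not pass either, with 0 of 15 tested in limma (11 positive, 4 negative, median 0.05). The list includes superoxide dismutases and thioredoxin besides enzymes that remove peroxide. Prdx5, a peroxiredoxin, had 655, 666 and 685 FPKM in mutants, against 524, 618 and 599 FPKM in controls, without overlap (log2 0.21, SE 0.1, adjusted p = 0.786). Txn1, thioredoxin, had a log2 fold change of 0.19. Gpx2, the glutathione peroxidase of gut epithelium, had 1003, 307 and 563 FPKM in mutants and 872, 517 and 938 FPKM in controls. Gpx2 was named after its values were seen, and mutant 2 and control 2 were the lowest of their groups. Cat of the same list was instead highest in library 2 of both groups. It had 107, 179 and 93.5 FPKM in mutants and 118, 169 and 107 FPKM in controls. Over all 9 lists of related genes, 114 of 127 members were tested and 0 passed in limma. At an unadjusted p under 0.05 there were 4, which is 3.51% of those tested, against 5.81% of all rows.

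Rows whose pattern was most like that of Duox2 over the 6 libraries were Stk3 (r = 0.99), Usp25 (0.99), Fgfr1op2 (0.98), Rprd1a (0.98) and Pter (0.98), among 12561 other rows with a mean of at least 1 FPKM. These rows moved over a far narrower range: Stk3 had 6.74, 5.53 and 6.28 FPKM in mutants and 7.33, 6.55 and 6.78 FPKM in controls. Over these 6 libraries 83 rows had an r above 0.9 with Duox2. Duoxa2, at 0.91, was exceeded by 66 rows, or 0.525% of them.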

How the data were processed

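The authors used TopHat, Cufflinks, DESeq and CASAVA 1.8.2 and the mm9 build, per the submitters' processing notes, which leave out the remaining versions, the counting and the handling of shared reads. Per the labels, duodenal RNA with an integrity number above 8 went into TruSeq libraries. The authors' deposited tables hold FPKM with intervals and, for transcripts, coverage. The authors' deposited DESeq table holds group means of counts over size factors (a signal), their ratio, its log2 value, and p-values from DESeq. Positions are mm9 and 1-based.

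Groups came from the titles. Reads were implied from the FPKM intervals, taken as 2 standard errors. For single-transcript genes under 500 reads, 87.8% to 88.2% of values per library lay within 0.05 of a whole number. Intervals and floors cover counting error only. Nothing says that litters or sexes were balanced.

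With R 4.3.3 and limma 3.58.1, a model with trended variance prior was fitted to log2(FPKM + 0.1) for 15864 rows with a mean of at least 0.1 FPKM, and 7835 rows were below it. This scale understates changes of low genes. Benjamini-Hochberg adjustment ran over all of these rows, and an adjusted p under 0.05 was called. The fit was tested on simulated data. Deviations from group means of same-numbered libraries correlated at 0.11, 0.21 and 0.39, each over 0.1, so the numbers were taken as pairs. Unlike numbers gave −0.28 to 0.13, the highest being mutant 2 with control 1, so pair 1 is weakly marked. The 36 correlations used all 720 pairings. Promoter sequences are from RefSeq (GRCm38.p6) and were placed on mm9 by exact match.

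All 10 genes, in each list the 2 genes of smallest unadjusted p, and the 5 rows most like Duox2 were named by rule. The genes and lists were chosen with earlier results of these data known. Alternatives were other pseudocounts, filters, scalings and priors, a replicate block, voom on implied reads, summed rows and leaving out libraries.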

Additional observations from a re-analysis of the deposited data

How the results depend on the processing

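None of the 9 tested genes passed an adjusted p of 0.05 in limma under any of 17 alternatives, and the lowest adjusted p was 0.606, with the replicate block. Of the 153 log2 fold changes under alternatives, 140 kept their sign and 13 reversed. Leaving out 1 library gave −1.03 to 0.16 for Duoxa2, −0.71 to 0.28 for Lcn2, −0.61 to 0.22 for Nox1, −1.69 to 1.73 for Saa1 and −0.17 to 0.16 for Ido1, and it turned no sign for Duox2, Nos2, Saa3 or Pigr. Nox1 was 0.01 after quantile normalization, and Saa1 was 0.35 without the number 3 libraries of both groups, an alternative added after seeing the data. The cause of these reversals was not tested. Over all rows 0 passed in limma, 922 had an unadjusted p under 0.05 and voom called 0. With the replicate block 2 rows passed (Chga and Mt1), and leaving out 1 library gave 0 to 3. The block changed no call among the 9 genes. No pair of genes passed in the correlations under another pseudocount, trimmed mean scaling, Spearman rho or a filter of 1 FPKM. Low reads limit Saa1, Saa2, Saa3, Nox1 and Cxcl1.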
